A study of Mus musculus with 9 samples.

Results

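Tight junctions and desmosomes hold together the epithelial cells of the conjunctiva, the mucosa between eyelid and eyeball. The genes described here are those of the deposited table whose symbols belong to the claudin (Cldn followed by a digit), desmoglein (Dsg), desmocollin (Dsc), plakophilin (Pkp) and zonula occludens (Tjp) families. Ocln, Cgn, F11r, Marveld2, Marveld3, Cdh1, Jup, Dsp, Ppl, Evpl and Perp were added by name, and the endothelial claudin Cldn5 was left out. The rule used symbols only, but it was set with earlier results of these data known. It gave 41 genes of the 20603 in the table, and 37 of them had enough counts to be tested.

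The study measured mRNA levels by bulk RNA-seq in whole mouse conjunctiva under allergic eye disease, in 3 groups of 3 libraries. All mice were on a C57BL/6j background and carried homozygous floxed alleles of Vegfr3 (gene symbol Flt4), the receptor through which lymphatic endothelium responds to VEGF-C. All received 5 intraperitoneal injections of tamoxifen at 75 mg/kg in week 5, and in week 6 were immunised with 250 μg ovalbumin (OVA), 0.3 μg pertussis toxin (PTX) and 5 mg aluminium hydroxide. Control mice were Vegfr3 fl/fl littermates without Cre, and the knockout mice (Vegfr3iLECko) carried Prox1CreERT2, a tamoxifen-inducible Cre driven by Prox1, a gene of lymphatic endothelium that is also active in some other cell types. The 3 groups were unchallenged control, challenged control and challenged knockout. Challenge began 14 days after immunisation and was 250 μg OVA in a 5 μL drop to the right eye once daily for 28 days. The left eye of challenged mice received saline, and which eyes or animals gave the unchallenged libraries is not given in the labels. Each library pooled the conjunctiva of 3 mice, so the p-values below measure the spread between pools. The 3 groups include no unchallenged knockouts. A genotype difference under challenge therefore cannot be told apart from one already present without challenge.

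Tight junctions seal the space between neighbouring epithelial cells near their apical side. Claudins and the proteins occludin, tricellulin and JAM-A span the membrane, and the zonula occludens proteins and cingulin tie them to actin. Desmosomes rivet cells together below that seal: desmogleins and desmocollins adhere across the gap, and plakoglobin, plakophilins and desmoplakin anchor them to keratin filaments. In a stratified mucosa such as the conjunctiva these contacts form the barrier that keeps allergens and microbes on the ocular surface out of the tissue.

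Library totals ran from 16490050 to 24746836 counts, and 3 counts corresponded to 0.115 to 0.186 CPM (a gene's counts scaled to library size and TMM factor). Conjunctival epithelium markers summed to between 8450.5 and 12376 CPM in the 9 libraries, with Krt4 at 3539.6 ± 759 CPM (SD, n = 3) in unchallenged controls. Knockout library 1 stood apart: its hair follicle markers summed to 159 CPM against 4.02 to 8.66 in the other 8 libraries, and its meibomian gland markers to 363 CPM against 19.4 to 52.3. Flt4 read 13.4, 20.3 and 20.1 CPM in challenged controls and 13.0, 5.07 and 5.32 CPM in knockouts. That is a log2 fold change of -1.20 (SE 0.40, edgeR adjusted p = 0.468), with the first knockout library close to the lowest control; without that library the value was -1.78 (SE 0.34, edgeR adjusted p = 0.309).

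No junction gene passed an adjusted p of 0.05 in any of the 3 comparisons. By edgeR's quasi-likelihood test, 0 of 37 were called after challenge in controls, where 0.0640% of all 15613 tested genes were called, and 0 of 37 by genotype under challenge, where 0% of all genes were called. At an unadjusted p under 0.05 the challenge comparison held 6 junction genes, 16.2% of them against 12.4% of all genes, and the genotype comparison held 2, 5.41% against 8.49%. DESeq2 and the edgeR fit with the replicate number as a block also called 0 junction genes in each comparison. Over all genes DESeq2 called 4.69% and 1.51% of them, and the block 1.71% and 0.141%. The comparison of challenged knockouts with unchallenged controls called 0 of 37 by all of these tests, held 0 at an unadjusted p under 0.05 against 2.90% of all genes, and called 0% of all genes by edgeR and 0.0705% by DESeq2. These 3 comparisons share libraries with one another. The 10 genes that edgeR called after challenge differed by at least 1.10 on the log2 scale, and the largest difference of a junction gene was 1.18, in the sparsely expressed Cldn17. A count of 0 therefore does not show that levels were equal.

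The 95% intervals show how precisely each difference was measured. For 25 of 37 junction genes (67.6%, against 56.9% of all genes) the 95% interval of the challenge difference lay within a factor of 2 either way. The same held for 26 genes (70.3%, against 57.0%) by genotype and for 27 (73.0%, against 60.3%) between knockouts and unchallenged controls. Estimated log2 fold changes were above 0 for 25 junction genes after challenge (48.5% of all genes), 20 by genotype (50.4%) and 27 between knockouts and unchallenged controls (50.7%). The median log2 fold change of the junction genes was 0.16 after challenge, against -0.01 over all genes, and 0.04 by genotype, against 0.00.

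**Figure D1:**
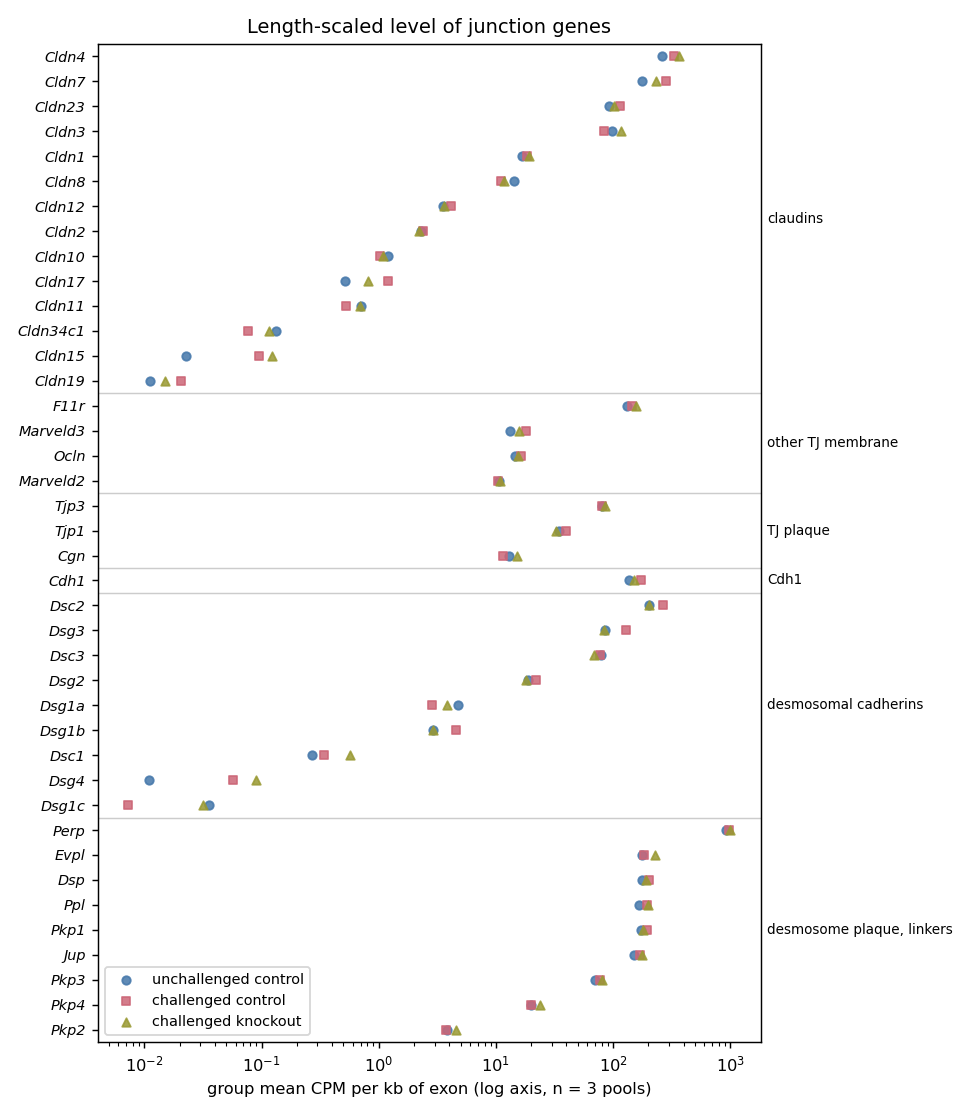
Group mean level of the junction genes in CPM per kilobase of exon (log axis), with 1 symbol per group of 3 pools, arranged by role. Perp is the highest at 964 and the untested genes Cldn15, Cldn19, Dsg1c and Dsg4 lie at the bottom of their families.

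Among the 14 claudins, whose strands set which ions and solutes pass, 4 had the highest levels. Per kilobase of exon, the scale on which levels of different genes are compared, Cldn4 averaged 319 CPM, Cldn7 231, Cldn23 103 and Cldn3 99.5 over the 9 libraries. Cldn1 averaged 18.1 on the same scale, and the remaining 9 lay at 12.3 or lower. Cldn15 and Cldn19 had 28 and 12 counts in all 9 libraries together and were not tested.

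Promoter windows are shown for Cldn4 and Cldn7, the most abundant claudins per kilobase. They are RefSeq sequences of GRCm38.p6, from 250 bases before to 50 after the start site, and Cldn7 has 2 start sites. Capitals mark matches, on either strand, to an E-box (CAGGTG) bound by Snail and Zeb repressors of epithelial genes, a STAT motif (TTCNNNGAA) or an interferon regulatory factor motif (GAAANNGAA). A grainyhead-like motif (AACCGGTT) was searched as well.

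Cldn4, chr5:134946885-134947184, minus strand: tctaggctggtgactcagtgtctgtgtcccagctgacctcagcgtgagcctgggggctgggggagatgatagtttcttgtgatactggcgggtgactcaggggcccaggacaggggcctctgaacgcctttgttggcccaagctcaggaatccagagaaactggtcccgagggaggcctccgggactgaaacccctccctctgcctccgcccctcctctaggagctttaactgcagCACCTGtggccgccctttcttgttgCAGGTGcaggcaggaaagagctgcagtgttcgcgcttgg

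Cldn7, chr11:69964529-69964828, plus strand: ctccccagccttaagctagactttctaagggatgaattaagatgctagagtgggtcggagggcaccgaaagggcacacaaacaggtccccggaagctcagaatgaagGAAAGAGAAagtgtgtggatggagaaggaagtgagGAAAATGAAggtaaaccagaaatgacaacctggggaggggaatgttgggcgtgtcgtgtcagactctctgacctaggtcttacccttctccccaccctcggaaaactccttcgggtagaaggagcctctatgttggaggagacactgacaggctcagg

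Cldn7, chr11:69965171-69965470, plus strand: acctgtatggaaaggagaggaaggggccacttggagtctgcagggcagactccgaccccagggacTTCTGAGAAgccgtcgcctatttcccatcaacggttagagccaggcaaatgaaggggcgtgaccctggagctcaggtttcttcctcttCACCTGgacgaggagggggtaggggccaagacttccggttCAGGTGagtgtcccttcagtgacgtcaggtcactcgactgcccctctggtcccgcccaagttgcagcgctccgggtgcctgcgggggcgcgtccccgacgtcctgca

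The Cldn4 window holds an E-box on each side of its start site, with first bases at -14 and 11. The upstream Cldn7 window holds IRF matches at -143 and -108, and the other Cldn7 window has E-boxes at -97 and -57 and a STAT match at -185. Windows were found for 21 of the 41 genes, 30 windows in all. An E-box was in 12 of the 30 (40%), against 20.2% of 32851 windows of all genes, a STAT match in 10% against 8.3%, an IRF match in 3.33% against 8.56%, and a grainyhead match in 0 against 0.146%. A match describes these letters and is not a measured binding site.

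Cldn4, a claudin that tightens the seal, was at 409.9, 344 and 681 CPM in unchallenged pools, 632, 422 and 739.5 in challenged controls and 374, 753 and 854 in knockouts. All 3 groups overlapped. Its log2 fold change was 0.32 after challenge (95% interval -0.48 to 1.12) and 0.14 by genotype (-0.66 to 0.94).

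Cldn7, which lines the lateral membrane of many epithelia, had 304, 291 and 440.0 CPM in the unchallenged pools and 589, 426 and 630.5 in the challenged control pools. The highest unchallenged library exceeded the lowest challenged one. The log2 fold change was 0.67 (SE 0.27, 95% interval 0.06 to 1.28), with an unadjusted p of 0.0344 and an edgeR adjusted p of 0.341. Knockouts were at 304, 581 and 479 CPM and overlapped both other groups, with a genotype difference of -0.27 (95% interval -0.88 to 0.34).

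The other tested claudins overlapped between groups in both comparisons. After challenge their log2 fold changes ran from -0.78 for Cldn34c1 to 1.18 for Cldn17, both at a mean under 1 CPM, and by genotype from -0.55 for Cldn17 to 0.61 for Cldn34c1. Cldn1, whose loss in mouse epidermis opens the barrier, was at 80.5 ± 16.5, 89.6 ± 31.5 and 93.3 ± 14.2 CPM (SD, n = 3) in unchallenged controls, challenged controls and knockouts.

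Of the other membrane proteins of the tight junction, Marveld3, a relative of occludin, separated between the control groups. Unchallenged controls had 41.6, 36.3 and 50.9 CPM and challenged controls 60.8, 54.8 and 60.3, so the groups did not overlap. Its log2 fold change was 0.45 (SE 0.16, edgeR adjusted p = 0.265). Knockouts, at 45.4, 53.7 and 55.0 CPM, overlapped both groups.

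Occludin itself (Ocln) was at 62.5, 47.1 and 73.7 CPM in unchallenged pools, 64.3, 61.0 and 80.5 in challenged controls and 58.9, 65.2 and 72.6 in knockouts. F11r, which encodes JAM-A, was at 282, 311 and 453 CPM, then 311, 355 and 503, then 329, 496 and 418 in the same order of groups. Both genes overlapped throughout. Their challenge differences were 0.17 (95% interval -0.26 to 0.59) and 0.16 (-0.41 to 0.73) on the log2 scale, and those by genotype -0.07 (-0.49 to 0.36) and 0.09 (-0.48 to 0.66). Marveld2, which encodes tricellulin and seals corners where 3 cells meet, had group means of 35.7 ± 8.26, 35.6 ± 8.14 and 37.0 ± 7.45 CPM (SD, n = 3).

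In the plaque beneath the membrane, Tjp1 (ZO-1) was at 295, 247 and 268 CPM in unchallenged pools, 314, 302 and 310.3 in challenged controls and 283, 252 and 232 in knockouts. Every challenged control library lay above every library of the other groups, by a small margin. The log2 fold change was 0.19 after challenge (SE 0.14, edgeR adjusted p = 0.680) and -0.27 by genotype (SE 0.14, edgeR adjusted p = 0.647).

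Tjp3 (ZO-3), the most abundant of the plaque genes per kilobase at 82.2 CPM, was at 199, 316 and 386 CPM in unchallenged pools, 209, 366 and 319 in challenged controls and 266, 360.1 and 328 in knockouts. Its groups overlapped, with differences of -0.01 (95% interval -0.63 to 0.60) after challenge and 0.09 (-0.52 to 0.71) by genotype. Cgn, which encodes cingulin, overlapped in both comparisons as well.

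Cdh1 encodes E-cadherin, the adhesion molecule of the adherens junction, on which tight junctions and desmosomes depend for their assembly. Unchallenged controls had 568, 628 and 671 CPM and challenged controls 732, 738 and 900.2, which did not overlap. Knockouts were at 626, 868 and 564 CPM and overlapped both. The log2 fold change was 0.34 after challenge (SE 0.20, edgeR adjusted p = 0.564) and -0.20 by genotype (SE 0.20, edgeR adjusted p = 0.787).

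With Dsg1a and Dsg1b counted as separate genes, the desmosomal cadherins held most of the junction genes that separated. The split of reads between that pair is uncertain, and their summed CPM overlapped between all groups. In the challenge comparison 7 junction genes (18.9%, against 15.7% of all genes) had groups that did not overlap, 6 of them higher in challenged controls (7.21% of all genes) and 1 lower (8.50%). Of these, 4 were among the 7 tested desmosomal cadherins: Dsc2, Dsg1b and Dsg3 higher and Dsg1a lower in challenged controls. In the genotype comparison 6 junction genes (16.2%, against 12.9%) did not overlap, 1 higher in knockouts (6.70% of all genes) and 5 lower (6.24%). Of these, 5 were desmosomal cadherins: Dsc2, Dsg1b, Dsg2 and Dsg3 lower and Dsg1a higher in knockouts. No junction gene was free of overlap between challenged knockouts and unchallenged controls, against 6.59% of all genes. The challenge and genotype comparisons share the challenged controls, so a value of those 3 pools enters both with opposite sign.

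**Figure D2:**
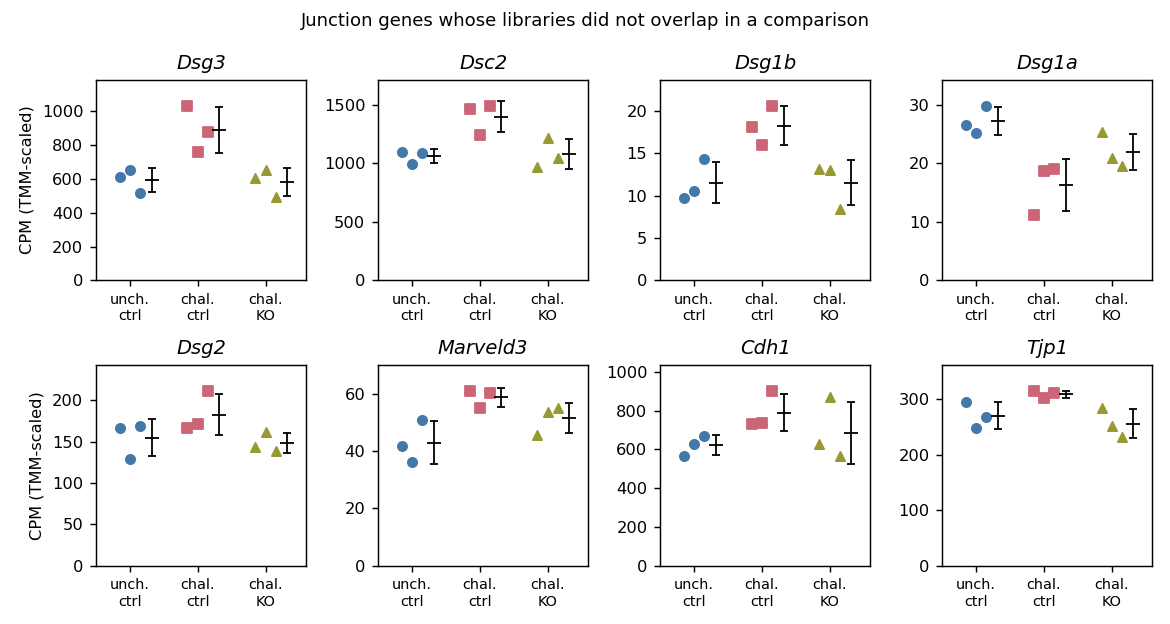
CPM of 8 junction genes in each library (points), with the mean and SD of each group of 3 pools beside them (bars). Dsg3 lies between 759 and 1033 CPM in challenged controls and between 493 and 655 CPM in the other 6 libraries.

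Dsg3, the desmoglein of basal layers and mucosae and the target of autoantibodies in pemphigus vulgaris, had 610.4, 655 and 519 CPM in the unchallenged pools. Levels were 1033, 759 and 880.0 CPM in challenged controls and 608, 653 and 493 in knockouts. The challenged control libraries lay above all 6 others. The log2 fold change was 0.58 after challenge (SE 0.19, edgeR adjusted p = 0.221), and the 95% interval of the fold ran from 1.12 to 2.01. It was -0.61 by genotype (SE 0.19, 95% interval -1.03 to -0.19, edgeR adjusted p = 0.423). DESeq2 gave adjusted p-values of 0.0560 and 0.0883.

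Dsc2, the most abundant desmosomal cadherin per kilobase at 223 CPM, was at 1099, 991 and 1087 CPM in unchallenged pools, 1464, 1242 and 1489 in challenged controls and 966, 1218 and 1043 in knockouts. Challenged controls again lay above all other libraries, with the lowest challenged control at 1242 and the highest knockout at 1218 CPM. The log2 fold change was 0.40 after challenge (SE 0.17, edgeR adjusted p = 0.371) and -0.38 by genotype (SE 0.17, edgeR adjusted p = 0.595).

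Dsg1a and Dsg1b encode desmoglein 1, the form of upper layers, from closely similar genes of 1 cluster. Dsg1b was at 9.68, 10.6 and 14.3 CPM in unchallenged pools, 18.1, 16.0 and 20.6 in challenged controls and 13.2, 13.0 and 8.46 in knockouts. Dsg1a was at 26.5, 25.2 and 29.8 CPM, then 11.1, 18.6 and 19.1, then 25.3, 20.9 and 19.5. The pair differed in opposite directions, and for each the challenged controls did not overlap either other group.

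The log2 fold change of Dsg1b was 0.66 after challenge (SE 0.25, edgeR adjusted p = 0.285) and -0.66 by genotype (SE 0.25, edgeR adjusted p = 0.509). That of Dsg1a was -0.74 (SE 0.23, edgeR adjusted p = 0.201) and 0.43 (SE 0.23, edgeR adjusted p = 0.649). How reads were assigned between these genes is not given in the sources used here: 31.6% of the 50-base windows of Dsg1a transcripts also occur in Dsg1b, and 45.5% of those of Dsg1b in Dsg1a, so the split is uncertain. The related Dsg1c had 20 counts in all 9 libraries and was not tested.

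The share of Dsg1a in the summed Dsg1a and Dsg1b counts was chosen after these values were seen. It was 73.3%, 70.4% and 67.5% in unchallenged controls, 38.1%, 53.7% and 48.1% in challenged controls and 65.8%, 61.6% and 69.7% in knockouts. The widest exact binomial 95% interval for a single library, which covers counting error only, was 33.7% to 42.6% in challenged control 1. The sum of both genes was 36.2, 35.7 and 44.1 CPM, then 29.3, 34.6 and 39.7, then 38.5, 34.0 and 28.0, and overlapped between all groups.

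**Figure D3:**
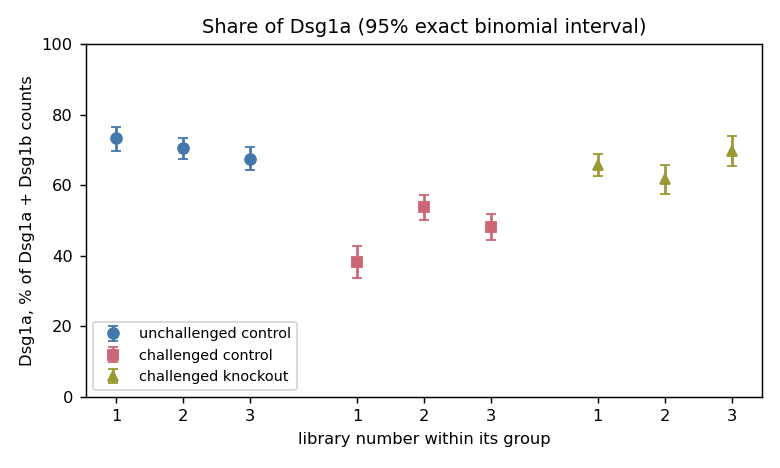
Share of Dsg1a in the Dsg1a and Dsg1b counts of each library (percent), with exact binomial 95% intervals. The 3 challenged control libraries lie between 38.1% and 53.7% and the other 6 between 61.6% and 73.3%.

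Dsg2, the desmoglein of simple epithelia and basal cells, was at 166, 129 and 169 CPM in unchallenged pools, 166, 171 and 211 in challenged controls and 144, 162 and 139 in knockouts. Knockouts lay below every challenged control, and unchallenged controls overlapped both. The genotype difference was -0.30 (SE 0.16, edgeR adjusted p = 0.661). An antisense gene overlaps 330 of its 8268 exonic bases, and the strand setting of the counts is not given in the sources used here.

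Dsc3, the desmocollin of basal layers, overlapped in both comparisons, at -0.04 and -0.16 on the log2 scale. Dsc1 and Dsg4, named after their values were seen, are genes of cornifying and hair-forming cells. Dsc1 was at 5.96 CPM in knockout library 1, the library with hair follicle and meibomian signal, and at 0.686 to 2.28 in the other 8. Its genotype difference was 0.73 with that library and -0.43 without it. Dsg4, with 37 counts in all and not tested, was at 0.934 CPM in the same library and at 0 to 0.433 elsewhere. The Dsg3 and Dsc2 genotype differences without knockout library 1 were -0.63 and -0.30.

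Across unpaired libraries, the desmosome plaque and linker genes overlapped between groups in both comparisons. Perp, a membrane protein that stabilises desmosomes in stratified epithelia, averaged 964 CPM per kilobase, the highest of the 41 genes. Its libraries read 1692, 1636 and 2074 CPM in unchallenged controls, 1659, 1791 and 2216 in challenged controls and 1546, 2214 and 2112 in knockouts. The groups overlapped, with differences of 0.07 (95% interval -0.41 to 0.55) after challenge and 0.05 (-0.43 to 0.53) by genotype.

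Dsp encodes desmoplakin, which binds keratin filaments. Its libraries read 1449.6, 1713 and 2001 CPM in unchallenged controls, 1513, 2007 and 2344 in challenged controls and 1613, 2170.5 and 1768 in knockouts. These overlapped too, and an antisense gene overlaps 499 of the gene's 9659 exonic bases. The log2 differences were 0.18 (95% interval -0.32 to 0.69) and -0.08 (-0.59 to 0.43). Over all 9 genes of the group, which include plakoglobin (Jup), plakophilins and the envelope linkers Ppl and Evpl, log2 fold changes lay between -0.05 and 0.24 after challenge and between -0.12 and 0.31 by genotype.

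**Figure D4:**
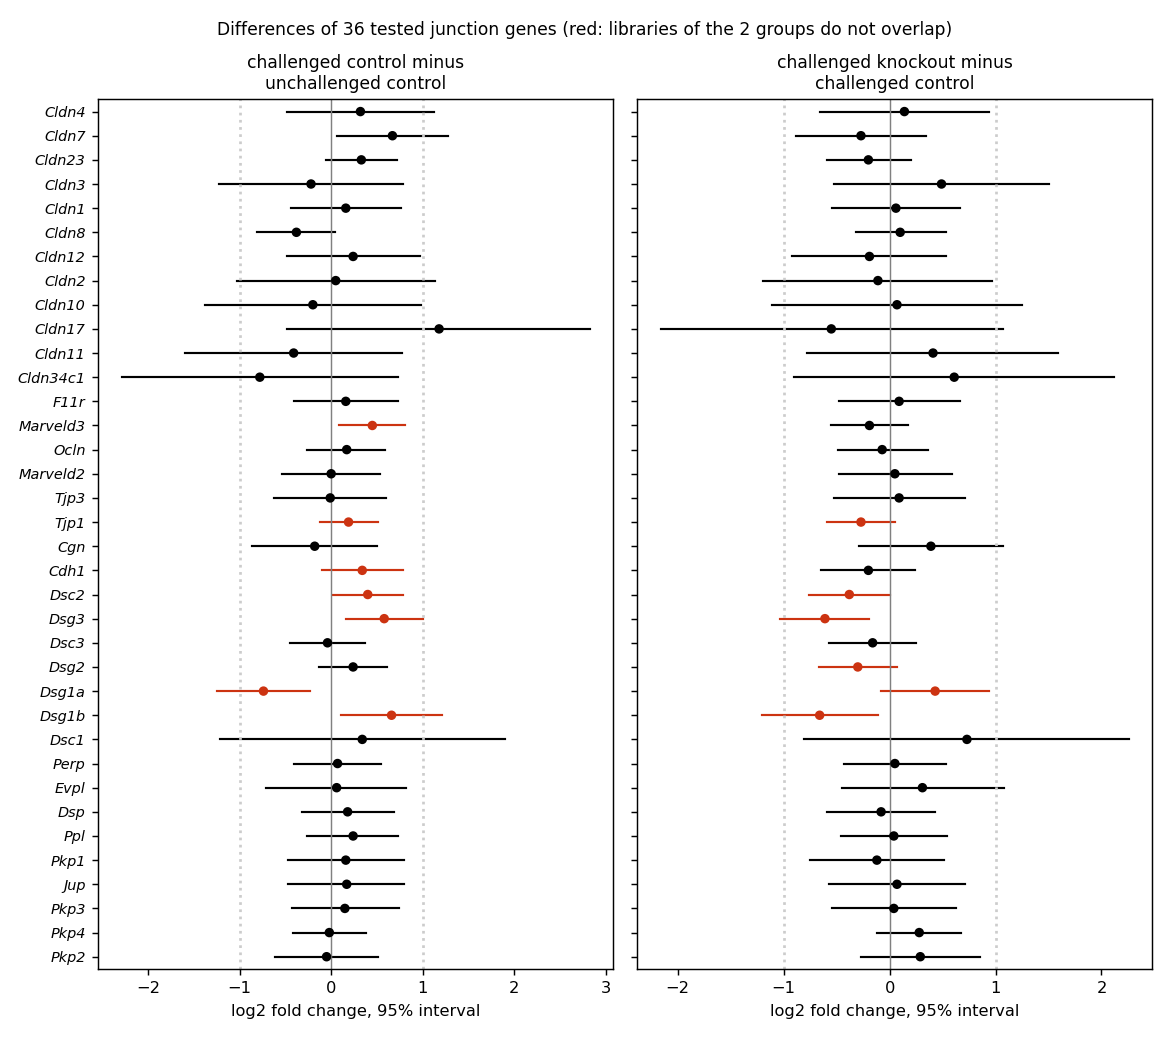
Log2 fold change and 95% interval of tested junction genes for challenge (left) and genotype (right), in red where the libraries of the groups did not overlap. Dsg3 lies at 0.58 on the left and -0.61 on the right, and dotted lines mark a factor of 2.

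The median biological coefficient of variation within groups was 22.5% over the 31 junction genes with a mean of at least 10 CPM and 21.1% over all 9937 tested genes at that level. Part of that spread was shared between genes, and same-numbered control libraries deviated together. For part of the junction genes the libraries numbered 1 were low. In all, 14 of the 37 (37.8%, against 15.6% of all genes) were lowest in library 1 of every group, among them Dsp, Jup, Ppl, Evpl, Tjp3 and F11r. The desmosomal cadherins differed, and their sum was highest in library 1 of both control groups. It was 2418, 2160.4 and 2252 CPM in unchallenged controls, 3103, 2587 and 3084 in challenged controls and 2085, 2485 and 2082 in knockouts. General epithelium markers summed to 2907, 2831 and 2972 CPM in the libraries numbered 1 and to between 3613 and 5735 in the other 6. Basal epithelium markers summed to 17681, 16228 and 18294 CPM against 21555 to 39719. Other epithelial lists did not separate in this way. Conjunctival epithelium markers summed to 9123, 10073 and 8450.5 CPM in the libraries numbered 1, against 8658 to 12376. Goblet cell markers summed to 664, 459 and 999 CPM, against 116 to 1093. In bulk tissue, fewer cells of a type and less RNA per cell cannot be told apart.

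**Figure D5:**
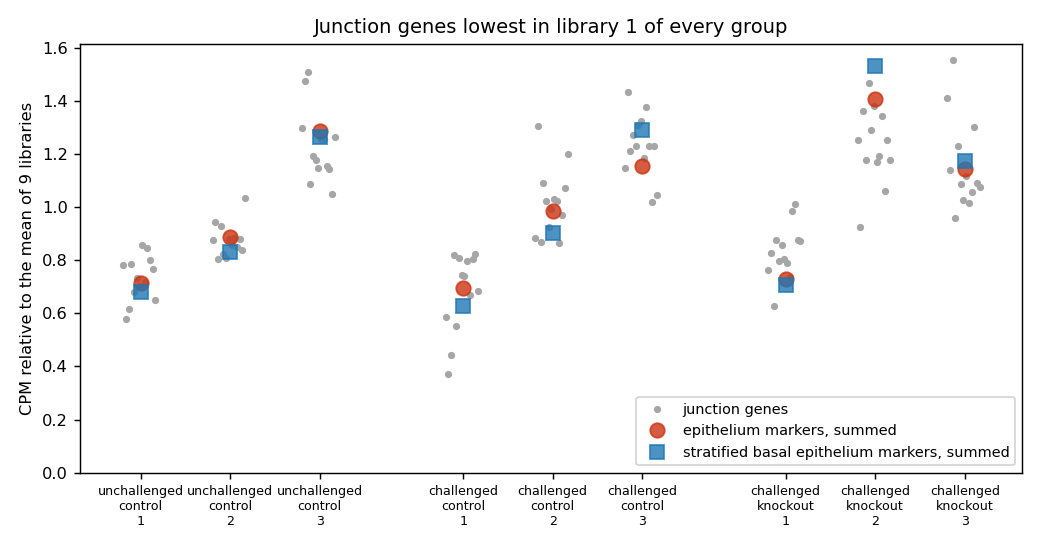
CPM of 13 of the 14 genes (grey), of summed epithelium markers (circles) and of summed basal epithelium markers (squares) in each library, relative to the mean of all 9. All 3 libraries numbered 1 have marker sums below the other 6.

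Read within the same-numbered pairs of control libraries, a reading added after the data were seen, 18 of the 37 junction genes (48.6%, against 21.3% of all genes) were higher in the challenged library of all 3 pairs. Another 2, Dsg1a and Cldn11 (5.41%, against 22.8%), were lower in all 3. The 18 included genes whose groups overlapped across unpaired libraries: Cldn4, Cldn7, Cldn23, Ocln, F11r, Dsg2, Dsp, Jup, Ppl, Pkp1 and Pkp3. The count was not tested, since the genes share the same 6 libraries, and the edgeR fit with the block called 0 of them. The mean log2 CPM of the epithelium markers was 7.38, 7.51 and 8.07 in the unchallenged libraries of these pairs. It was 7.47, 7.83 and 7.98 in the challenged libraries, higher in 2 of 3. The CPM sum of these markers was 2907, 3613 and 5237 in the unchallenged and 2831, 4018 and 4704 in the challenged libraries. That sum was higher after challenge in the second pair only. The part of the epithelium markers in the count was not tested.

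With the mean of the epithelium markers added as a covariate, an alternative chosen after the data were seen, 0 junction genes were called, while 376 of all tested genes were called after challenge and 0 by genotype. The Dsg3 differences were then 0.62 (SE 0.15, edgeR adjusted p = 0.0736) and -0.57 (SE 0.15, edgeR adjusted p = 0.232), and the median of the junction genes was 0.07 after challenge and -0.03 by genotype. Markers of some other tissues differed between the groups. T cell markers summed to 77.0 to 161 CPM in challenged controls, 12.8 to 20.5 in unchallenged controls and 22.9 to 30.7 in knockouts. Macrophage and dendritic cell markers summed to 1447 to 2316, 475 to 837 and 559 to 789 CPM in these groups, and skeletal muscle markers to 379 to 1047, 1738 to 6142 and 2589 to 3993. Corneal epithelium markers, which are epithelial themselves, summed to 1386 to 2436, 2006 to 4523 and 2166 to 4362 CPM, and these ranges overlapped. Most of that sum was Aldh3a1, at 1029 to 3718 CPM over the libraries, while Krt12 was at 0.852 to 15.5 CPM. Adipocyte markers summed to 0.570 to 1.88 CPM in challenged controls and 1.99 to 42.8 in unchallenged controls. Their part in the junction gene differences was not tested.

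Genes that work beside these junctions were counted from lists of related pathways. None of 10 tested adherens junction and nectin genes and none of 18 other tight junction and polarity genes was called by edgeR in any comparison. In the challenge comparison 0 of the first list and 3 of the second were at an unadjusted p under 0.05, a level reached by 12.4% of all genes, and medians were 0.08 and -0.12. Ctnnb1, which encodes beta-catenin, was at 733 ± 24.1, 761 ± 8.04 and 704 ± 56.8 CPM (SD, n = 3), and Ctnna1, alpha-catenin, at 640.0 ± 122, 691 ± 111 and 676 ± 95.1. The 3 genes of the second list were Crb3, Pard6b and Jam3, named after their values were seen. Crb3 and Pard6b were higher after challenge. Their log2 fold changes were 0.55 (SE 0.24, edgeR adjusted p = 0.398) and 0.46 (SE 0.20, edgeR adjusted p = 0.381). Jam3, an adhesion molecule also found on endothelium, was lower. Its level was 7.71 ± 2.26 CPM in unchallenged and 3.78 ± 0.850 in challenged controls (SD, n = 3), with a log2 fold change of -1.03 (SE 0.34, edgeR adjusted p = 0.230). Blood endothelium markers summed to 210.4 to 301 and 144 to 187 CPM in the same groups, and their part in that value was not tested.

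Of 14 tested transcription factors known to act on epithelial junction genes, 0 were called by edgeR and 2 were at an unadjusted p under 0.05 after challenge, where 12.4% of all genes were. These were Grhl3 and Ovol1. Grhl3 was at 98.6 ± 24.1, 146 ± 20.8 and 119.7 ± 24.2 CPM in unchallenged controls, challenged controls and knockouts (SD, n = 3). Ovol1 was at 29.2 ± 4.52, 46.7 ± 11.4 and 50.9 ± 17.6 CPM in the same order. Both were named after their values were seen. Their log2 fold changes after challenge were 0.57 (SE 0.22, edgeR adjusted p = 0.308) and 0.68 (SE 0.27, edgeR adjusted p = 0.323). By genotype 1 of the 14 factors was at an unadjusted edgeR p under 0.05, where 8.49% of all genes were. Snai2, named for the E-box it binds, was at 25.8 ± 5.21, 27.0 ± 2.91 and 26.3 ± 4.72 CPM in the 3 groups. The Zeb factors had their lowest means in knockouts, with libraries that overlapped between all groups. Zeb1 was at 60.4 ± 16.1, 50.7 ± 8.87 and 37.7 ± 20.8 CPM, and Zeb2 at 47.0 ± 14.1, 55.9 ± 24.2 and 37.6 ± 20.5 (SD, n = 3). Fibroblast markers also had their lowest mean sum in knockouts, at 9448 ± 2468, 7885 ± 1336 and 5477 ± 2647 CPM in the same order (SD, n = 3). Their part in the Zeb values was not tested.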

How the data were processed

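Raw read counts per gene symbol were used as deposited by the authors, 1 table for all 9 libraries. Per the submitters' processing notes HISAT2, Bowtie2, DESeq2 and mm39 were used. For the counting program, annotation and strand setting the sources used here give nothing. Libraries were grouped by their titles. Genes were filtered with filterByExpr over the 3 groups (15613 of 20603 tested), scaled by TMM and tested with edgeR 4.0.16 (R 4.3.3) in 1 quasi-likelihood fit over all 9 libraries without a block, and p-values were adjusted by Benjamini-Hochberg over all genes tested. The common biological coefficient of variation was 31.7%. CPM were counts divided by the summed counts of tested genes and the TMM factor. Intervals are 95% intervals of the fit, and the SE is the log2 fold change divided by the root of F. Exon lengths came from GENCODE M21. The script was tested on simulated data.

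Members and lists were chosen with earlier results of these data known. Named genes were Flt4, the 2 members of each role with the highest mean CPM, not scaled by gene length, Cdh1, and up to 5 members in each direction whose groups did not overlap. Alternatives were RLE factors, no filter, DESeq2 1.42.0, a replicate block, only the groups compared and each library left out. Same-numbered unchallenged and challenged control libraries deviated together (correlations of 0.458, 0.245 and 0.488), which meets the criterion used for pairing, and those of knockouts and challenged controls (0.339, -0.147 and 0.334) did not. Printed values are nevertheless those of the fit without a block unless the block is named. No pair of replicates agreed within sampling noise. 1 member enters the counts and medians, and its own values are not reported here.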

Additional observations from a re-analysis of the deposited data

How the results depend on the processing

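No junction gene passed an adjusted p of 0.05 under any alternative that was run. RLE factors, no filter, DESeq2, the replicate block and the fit of 2 groups kept the direction of every named gene, apart from Tjp3 after challenge, which was at 0.00 with the block. The count of all genes called was less stable, and the cause was not tested. After challenge it was 10 as reported, 20 without a filter, 751 by DESeq2 over all genes it tested (732 of them among the 15613 genes of the edgeR test), 1 with only the 2 groups, 376 with the epithelium covariate, and 0 to 121 with single libraries left out, where 121 was reached without unchallenged control 1 and 0 without unchallenged control 2 or 3. By genotype it was 0 as reported and 239 by DESeq2 (236 among the genes of the edgeR test), and for knockouts against unchallenged controls 0 and 12 (11).

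With the replicate block, 267 genes were called after challenge, 476 when only those 2 groups were fitted, and 22 by genotype. The block changed no call of a junction gene.

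With the covariate, chosen after the data were seen, small differences changed sign: Perp to -0.01 and Flt4 to 0.07 after challenge, Cldn4 to -0.05 and Perp to -0.02 by genotype. Between knockouts and unchallenged controls they were -0.01 for Dsc2, -0.03 for Dsg1b, 0.05 for Dsg3, -0.03 for Dsp, -0.02 for Perp and -0.09 for Tjp3.

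Leaving out single libraries changed the sign of some log2 fold changes. After challenge the ranges were -0.24 to 0.21 for Tjp3, -0.33 to 0.17 for Flt4, -0.07 to 0.40 for F11r and -0.06 to 0.19 for Perp. By genotype they were -0.06 to 0.32 for F11r, -0.04 to 0.20 for Perp, -0.11 to 0.28 for Tjp3, -0.23 to 0.08 for Dsp, -0.14 to 0.07 for Ocln, -0.08 to 0.43 for Cldn4 and -0.43 to 1.19 for Dsc1. Between knockouts and unchallenged controls they were -0.06 to 0.27 for Cdh1, -0.08 to 1.53 for Dsc1, -0.07 to 0.10 for Dsc2, -0.10 to 0.20 for Dsg1b, -0.17 to 0.01 for Dsg2, -0.11 to 0.09 for Dsg3, -0.02 to 0.23 for Dsp, -0.05 to 0.26 for Ocln and -0.14 to 0.31 for Tjp3. The junction median ranged from -0.01 to 0.31, -0.11 to 0.16 and 0.07 to 0.26 in the 3 comparisons.

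With 3 pools a group the test called few genes of any kind, so a count of 0 junction genes does not show that their levels were equal.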

Other observations

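Hemidesmosomes fix basal epithelial cells to the basement membrane, and gap junctions pass small molecules between cells. By edgeR, 0 of 9 tested hemidesmosome genes and 0 of 6 gap junction genes passed an adjusted p of 0.05 after challenge, and 1 and 2 were at an unadjusted p under 0.05, a level reached by 12.4% of all genes. The genes named here were chosen after their values were seen. Itga6, the integrin subunit of hemidesmosomes, was at 399 ± 53.0 CPM in unchallenged controls, 559.8 ± 101 in challenged controls and 448 ± 30.0 in knockouts (SD, n = 3). Its log2 fold change after challenge was 0.49 (SE 0.18, edgeR adjusted p = 0.290). Gjb2, which encodes connexin 26, was at 85.7 ± 12.3, 128 ± 28.0 and 108 ± 22.8 CPM in the same order (SD, n = 3), with a difference of 0.58 (SE 0.21, edgeR adjusted p = 0.284).

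Spink5 encodes LEKTI, an inhibitor of the proteases that cleave desmosomes in shedding cells. It is 1 of 2 tested corneodesmosome genes, of which 0 passed an adjusted p of 0.05 by edgeR after challenge. Spink5 itself, chosen after its values were seen, was at an unadjusted p under 0.05, a level reached by 12.4% of all genes. Its libraries read 29.4, 24.5 and 22.4 CPM in unchallenged controls, 83.8, 28.0 and 45.5 in challenged controls and 54.5, 37.9 and 29.7 in knockouts. The control groups overlapped, and challenged control 1 was the highest of all 9 libraries. Its difference after challenge was 1.04 on the log2 scale (SE 0.37, edgeR adjusted p = 0.258).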
